A study of Homo sapiens with 2 samples.

Results

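The 10 genes examined here serve cell adhesion to the extracellular matrix and were chosen by symbol from a table of 60619 genes measured by RNA sequencing in HBEC-3KT cells with and without CBS overexpression. They comprise 5 integrin alpha chains (ITGA1, ITGA2, ITGA3, ITGA5 and ITGAV), 4 beta chains (ITGB1, ITGB5, ITGB6 and ITGB8) and ITGBL1, a beta-like gene. HBEC-3KT is a line of human bronchial epithelial cells immortalized with CDK4 and telomerase. CBS, cystathionine beta-synthase, joins homocysteine with serine at the entry to transsulfuration, and the study asked how its expression bears on Polycomb repressive complex 2. The CBS library came from cells transduced with pLenti6 carrying human CBS, and the control library from cells given the empty pLenti6 vector. Virus was applied for 4 to 8 hours in both cultures. Selection used 10 µg/mL of blasticidin, and the cells grew for 4 to 5 days on plates coated with gelatin, which is denatured collagen. The labels do not say whether either culture was a clone or a mixed population. Each group held 1 library, so no difference below could be tested or set against a spread between cultures.

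Integrins are receptors made of 1 alpha and 1 beta chain that span the cell membrane, bind matrix proteins outside the cell and are linked by adaptor proteins to actin inside it. The pairing sets the ligand. ITGA1 and ITGA2 with ITGB1 bind collagens, ITGA3 with ITGB1 binds laminins, and ITGA5 with ITGB1 binds fibronectin through its arginine-glycine-aspartate (RGD) motif. ITGAV pairs with several beta chains, binds vitronectin and fibronectin, and with ITGB6 or ITGB8 binds and activates latent TGF-beta. In airway epithelium these receptors hold basal cells to the basement membrane and take part in migration during repair. ITGBL1 is a secreted protein with EGF-like repeats that resemble the stalk of a beta chain, and it is not a receptor chain itself.

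The genes furthest apart between the libraries were ITGBL1, which was higher with CBS, and ITGA5, ITGA2 and ITGB6, which were lower. Their promoter windows, 250 bases before to 50 bases after the annotated start, are shown because these genes differed most; they surround the start that RefSeq annotates (GRCh38.p14), and values per gene do not show which start the cells used. Capitals mark TGANTCA, the motif bound by AP-1, and GGAATG, the motif bound by TEAD factors, searched on both strands; the 2 motifs do not overlap in any window shown. GGGCGG, the motif of SP1, was searched in the same way and is left in lower case. The windows lie at chr12:54419217-54419516 on the minus strand (ITGA5), chr5:52989102-52989401 on the plus strand (ITGA2), chr2:160200223-160200522 on the minus strand (ITGB6) and chr13:101452425-101452724 on the plus strand (ITGBL1).
ITGA5: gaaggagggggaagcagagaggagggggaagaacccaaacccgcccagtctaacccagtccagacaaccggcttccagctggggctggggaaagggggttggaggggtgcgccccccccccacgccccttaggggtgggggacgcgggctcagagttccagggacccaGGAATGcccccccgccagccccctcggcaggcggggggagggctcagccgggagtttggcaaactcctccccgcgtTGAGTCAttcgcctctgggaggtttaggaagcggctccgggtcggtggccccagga
ITGA2: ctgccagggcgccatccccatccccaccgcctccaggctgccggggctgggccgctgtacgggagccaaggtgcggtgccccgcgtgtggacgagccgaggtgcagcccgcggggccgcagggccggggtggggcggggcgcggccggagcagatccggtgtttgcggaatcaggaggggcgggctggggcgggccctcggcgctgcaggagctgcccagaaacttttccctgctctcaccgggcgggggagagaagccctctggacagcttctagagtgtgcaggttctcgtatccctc
ITGB6: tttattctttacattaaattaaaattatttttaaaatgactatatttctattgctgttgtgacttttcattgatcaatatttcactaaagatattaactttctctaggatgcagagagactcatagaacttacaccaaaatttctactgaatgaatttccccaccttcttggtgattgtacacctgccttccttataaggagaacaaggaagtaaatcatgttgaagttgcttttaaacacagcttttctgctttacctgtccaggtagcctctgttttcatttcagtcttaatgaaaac
ITGBL1: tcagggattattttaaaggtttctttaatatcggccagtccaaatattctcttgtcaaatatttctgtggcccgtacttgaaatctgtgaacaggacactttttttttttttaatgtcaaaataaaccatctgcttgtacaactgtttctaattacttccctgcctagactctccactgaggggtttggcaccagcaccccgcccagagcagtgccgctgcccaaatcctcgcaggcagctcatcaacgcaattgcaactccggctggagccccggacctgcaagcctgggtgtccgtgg

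The 4 windows differed in base composition, and the ITGB6 window lies inside the gene's deposited span. ITGA5 had a match to TGANTCA at position -6 and a match to GGAATG at position -82, counted from the annotated start, and the other 3 windows had neither. Matches of this kind were found in 7.71% of all 35116 promoter windows of the same length for TGANTCA and in 14.0% for GGAATG. GC content was 69.3% for ITGA5 and 72.7% for ITGA2, against a median of 58.7% over all windows, and it was 31.7% for ITGB6 and 47.7% for ITGBL1. The ITGB6 window held 0 CG dinucleotides, ITGBL1 held 9, ITGA5 held 16 and ITGA2 held 27. Matched by symbol, windows were found for 9 of the 10 genes, 13 windows in all, with none for ITGA3. Among those of ITGA1, ITGAV, ITGB1, ITGB5 and ITGB8 no TGANTCA was found, and GGAATG was found in 1 window of ITGB1. GGGCGG had 4 matches in the ITGA2 window, 1 in ITGA5, 1 in ITGBL1 and 0 in ITGB6; it was found in 8 of the 13 windows and in 45.0% of all windows. A match of letters does not show that a factor binds there.

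The libraries held 20786049 estimated counts with CBS, against 20433114 in the control. CBS itself had 3669 counts in the CBS library, against 280 in the empty-vector library, a 12.5-fold higher level (95% counting interval 11.1 to 14.2), which fits the labels. Its near-identical copy CBSL had 4378 counts with CBS, against 343 in the control, and reads of either gene may have been assigned to the other. Levels of the basal cell list were lower in sum with CBS, at 4571 CPM (counts relative to the scaled library size), against 7906 CPM in the control, and 3 of its 9 genes, the keratins KRT14, KRT15 and KRT17, were at least 2-fold lower (4.93% of all genes were). Intervals, covering counting error only, lay below a ratio of 1 for 6 of the 9 (29.0% of all genes) and above it for 2 (34.6%). KRT5 had a log2 fold of -0.68 (-0.70 to -0.67), with 2584 CPM with CBS, against 4154 CPM in the control. CDH3 was at -0.74 (-0.78 to -0.70) and CDH1 at -0.21 (-0.26 to -0.16). The 2 higher were NGFR and EPCAM. NGFR had 2294 counts with CBS, against 1120 in the control, a log2 fold of 0.97 (0.87 to 1.08). It passed 2-fold on log2(TPM + 1), at 1.02, and with the trend on transcript GC and length removed, at 1.16. EPCAM had a log2 fold of 0.57 (0.48 to 0.67). TP63, the defining factor of basal cells, had 5136 counts with CBS, against 4946 in the control. Many markers of other cell types had few or no counts, and CD68 had the most of them. Of 9 fibroblast markers, 8 had fewer than 10 counts in each library, DCN, LUM, COL1A2 and COL3A1 being at 0 in both, and the list summed to 6.69 CPM with CBS, against 13.9 CPM in the control. Endothelial markers summed to 9.97 CPM with CBS, against 8.83 CPM in the control, and smooth muscle markers to 10.7 CPM with CBS, against 10.9 CPM in the control. Immune markers summed to 40.3 CPM with CBS, against 122.9 CPM in the control. CD68 gave 29.4 CPM of that sum with CBS and 112.0 CPM of it in the control, while PTPRC and CD3E were at 0 in both. CD14 had 225 counts with CBS, against 203 in the control, and its interval held a ratio of 1. Fewer than 10 counts in each library were found for 6 of the 8 endothelial, 4 of the 7 immune and 2 of the 4 smooth muscle markers. COL1A1 made up most of the fibroblast sum, at 6.27 CPM with CBS, against 13.4 CPM in the control, and in TPM it stood at 3.18 with CBS, against 3.88 in the control. Of the 8 endothelial markers 2 passed the filter given below, and CDH5 was the only call, at least 2-fold higher (1.57% of all genes were). CDH5 had 87 counts with CBS, against 7 in the control, a log2 fold of 2.89 (2.47 to 4.93), while EGFL7 was at -0.50 (-0.87 to -0.17). The basal, fibroblast and immune sums were lower with CBS, the immune sum mostly through CD68. The endothelial sum was higher in CPM but lower in TPM, at 8.48 with CBS, against 9.50 in the control. Several single markers were named after their values were seen, so a direction shared with any of the 10 genes was bound to be found. The part of any marker in the differences of the 10 genes was not tested. In bulk RNA, fewer cells of a type and less RNA per cell cannot be told apart.

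All 10 genes passed the filter of at least 10 counts in 1 library and a mean of 1 CPM, as did 13304 genes in all. A call of higher or lower required a fold of at least 2 and an exact 95% interval, covering counting error only, without a ratio of 1. By that rule 1 of the 10 genes, ITGBL1, was higher, where 1.57% of all genes above the filter were, and 1 of the 10, ITGA5, was lower, where 4.93% were. The interval lay below a ratio of 1 for 7 of the 10 genes (29.0% of all genes) and above it for 3 (34.6% of all genes). An interval that excludes 1 was therefore common, at 63.5% of all genes. At a fold of 1.5 in place of 2, ITGBL1 stayed the only higher gene (8.2% of all genes) and ITGA2 and ITGB6 joined ITGA5 as lower (12.0% of all genes). In TPM, called on the fold alone, ITGBL1 was again higher (1.19% of all genes) and ITGA5 lower (2.83% of all genes). The median log2 fold, CBS over empty vector, was -0.25 over the 10 genes and 0.04 over all genes above the filter.

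**Figure D1:**
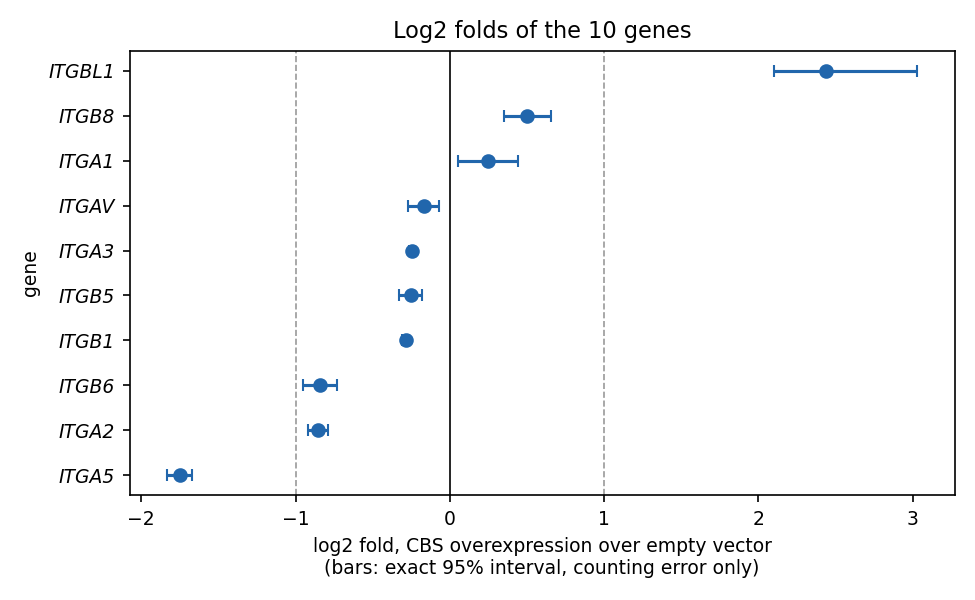
Log2 fold (CBS overexpression over empty vector) of each of the 10 genes, ordered by value, with exact 95% intervals that cover counting error only; dashed lines mark a 2-fold difference. ITGBL1 at 2.44 and ITGA5 at -1.75 lie beyond the dashed lines, and the other 8 genes lie between -0.85 and 0.50.

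Per length, ITGA3 and ITGB1 made up most of the message of the genes examined here. TPM values, which scale counts for transcript length and depth, are used here to compare genes with each other. ITGB4, an integrin chain outside that set, was higher than both, at 1510.55 TPM with CBS, against 1918.56 TPM in the control. ITGA3, the laminin-binding alpha chain, stood at 835.4 TPM with CBS, against 988.5 TPM in the control. ITGB1, the beta chain shared by the most alpha chains, stood at 604.5 TPM with CBS, against 696.8 TPM in the control. These are levels within the top 2% of genes, ITGA3 ranking 170 with CBS and 155 in the control and ITGB1 ranking 211 with CBS and 199 in the control. ITGB5, the vitronectin-binding partner of ITGAV, came next at 131.9 TPM with CBS, against 135.6 TPM in the control. ITGA5 was at 35.5 TPM in the CBS library, against 113.6 TPM in the empty-vector library. The order of the lower genes with CBS was ITGA2 at 26.3 TPM, ITGB6 at 18.6, ITGAV at 16.5, ITGB8 at 7.26, ITGBL1 at 6.58 and ITGA1 at 3.53. With the empty vector it was ITGA2 at 44.9 TPM, ITGB6 at 28.0, ITGAV at 18.5, ITGB8 at 4.78, ITGA1 at 3.25 and ITGBL1 at 1.01. The order of levels was thus the same in both libraries except that ITGBL1 and ITGA1 changed places at the low end. With 1 library a group, neighbours in the order cannot be separated by any spread between cultures.

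**Figure D2:**
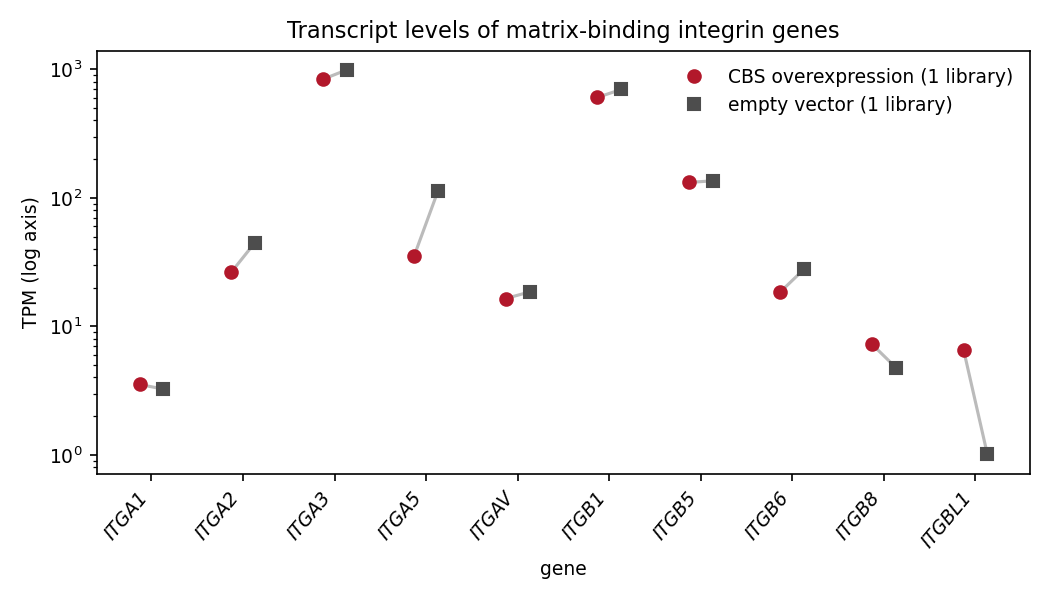
TPM of each gene on a log axis, with the CBS library as red circles and the empty-vector library as grey squares, 1 library each, joined by a line. ITGA3 and ITGB1 are highest in both libraries, and ITGA5 and ITGBL1 show the steepest lines, in opposite directions.

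Among the collagen receptors, ITGA2 was lower and ITGA1 was slightly higher in the CBS library. ITGA2 (ENSG00000164171, GRCh38 chromosome 5, 52989326 to 53094779), a receptor chain for fibrillar collagen, had 2987 counts with CBS, against 5175 in the control. After scaling that was 141.8 CPM with CBS against 256.6 CPM, a log2 fold of -0.85 (-0.92 to -0.79), or 1.81-fold lower. ITGA1 (ENSG00000213949, chromosome 5, 52787896 to 52959210), which favours the collagen of basement membranes, had 480 counts with CBS, against 387 in the control, a log2 fold of 0.25 (0.05 to 0.44), which was 0.09 on log2(TPM + 1) and 0.11 after the trend on transcript GC and length was taken out. The 2 genes are neighbours on chromosome 5, and their intervals lay on opposite sides of a ratio of 1. ITGA2 was 7.44 times ITGA1 in TPM with CBS, against 13.8 times in the control. PELO, a gene that lies inside ITGA1 on the same strand, had 814 counts with CBS, against 783 in the control, so the small ITGA1 count is uncertain where reads could fall to either gene.

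ITGA5, the fibronectin receptor chain, was the lowest of the 10 genes relative to the control. The gene (ENSG00000161638, chromosome 12, 54395261 to 54419460) had 1610 counts with CBS, against 5189 in the control, that is 76.4 CPM against 257.3 CPM. Its log2 fold was -1.75 (-1.83 to -1.67), or 3.37-fold lower (3.18 to 3.56), rank 153 from the low end of 13304 genes. In the authors' TPM the log2 fold on log2(TPM + 1) was -1.65. ITGA3 (ENSG00000005884, chromosome 17, 50055968 to 50090481), with 35548 counts with CBS, against 40364 in the control, had a log2 fold of -0.25 (-0.27 to -0.23). The narrow interval of ITGA3 comes from its high count and says nothing of the spread between cultures. ITGA3 was 23.5 times ITGA5 in TPM in the CBS library and 8.71 times in the empty-vector library. The share of ITGA5 in the summed TPM of the 5 alpha chains was 3.87% with CBS, against 9.72% in the control, while ITGA3 made up 91.1% with CBS, against 84.6% in the control.

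ITGB1, with which each of the 5 alpha chains can pair, differed little. The gene (ENSG00000150093, chromosome 10, 32900319 to 33005792) had 31016 counts with CBS, against 36223 in the control, a log2 fold of -0.29 (-0.31 to -0.26). ITGB1P1, a processed pseudogene of ITGB1 on chromosome 19, had 1120 counts with CBS, against 1469 in the control, and such copies can take reads of the parent. With its counts added, the log2 fold of ITGB1 was -0.29. An unnamed non-coding gene on the opposite strand within the ITGB1 locus (ENSG00000229656) had 34 counts with CBS, against 158 in the control. Whether counting used strand was not given in the sources used here, so its reads and those of ITGB1 may not be fully separated. Those of the 10 genes that are alpha partners of ITGB1, without ITGAV, are 4 chains and summed to 900.7 TPM with CBS, against 1150 TPM in the control. Alpha chains outside the 10 genes were left out, among them ITGA6 at 184.8 TPM with CBS, against 189.5 TPM in the control. The sum of the 4 was 1.49 times the ITGB1 level with CBS, against 1.65 times in the control. Both sums were mostly ITGA3, which pairs with ITGB1 alone.

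Of ITGAV and its other beta partners among the 10 genes, ITGB6 was lower, ITGB8 was higher, and ITGAV and ITGB5 were closer to the control. ITGAV (ENSG00000138448, chromosome 2, 186590065 to 186680901) had 1645 counts with CBS, against 1773 in the control, a log2 fold of -0.17 (-0.27 to -0.07). ITGB5 (ENSG00000082781, chromosome 3, 124761948 to 124901418) had 2728 counts with CBS, against 3113 in the control, and its log2 fold of -0.25 (-0.33 to -0.18) was -0.04 on log2(TPM + 1). ITGB6 (ENSG00000115221, chromosome 2, 160099666 to 160271888), a beta chain largely restricted to epithelia, had 1059 counts with CBS, against 1817 in the control. Its log2 fold was -0.84 (-0.95 to -0.73) in counts, or 1.79-fold lower, and -0.57 on log2(TPM + 1). ITGB8 (ENSG00000105855, chromosome 7, 20330702 to 20415754) had 884 counts with CBS, against 597 in the control, a log2 fold of 0.50 (0.35 to 0.66), or 1.42-fold higher. Both ITGB6 and ITGB8 bind latent TGF-beta, and their folds had opposite signs. ITGB6 was 2.56 times ITGB8 in TPM with CBS, against 5.85 times in the control. These 2 and ITGB5 summed to 157.7 TPM with CBS, against 168.3 TPM in the control, or 9.57 times the ITGAV level with CBS, against 9.09 times in the control. ITGB5 made up 83.6% of that sum with CBS, against 80.5% in the control.

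ITGBL1 had the largest fold of the 10 genes in either direction. The gene (ENSG00000198542, chromosome 13, 101452593 to 101720856) had 288 counts with CBS, against 47 in the control, that is 13.7 CPM against 2.33 CPM. It was 5.87-fold higher with CBS (4.30 to 8.17), a log2 fold of 2.44 and rank 17 from the high end of 13304 genes. The wide interval reflects the 47 counts in the control. FGF14, which overlaps it on the opposite strand, had 12 counts with CBS, against 4 in the control. The log2 fold of ITGBL1 depended on the prior count, a constant added to each count, and was 2.53 with a prior of 1, 2.15 with a prior of 20 and 1.92 on log2(TPM + 1).

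**Figure D3:**
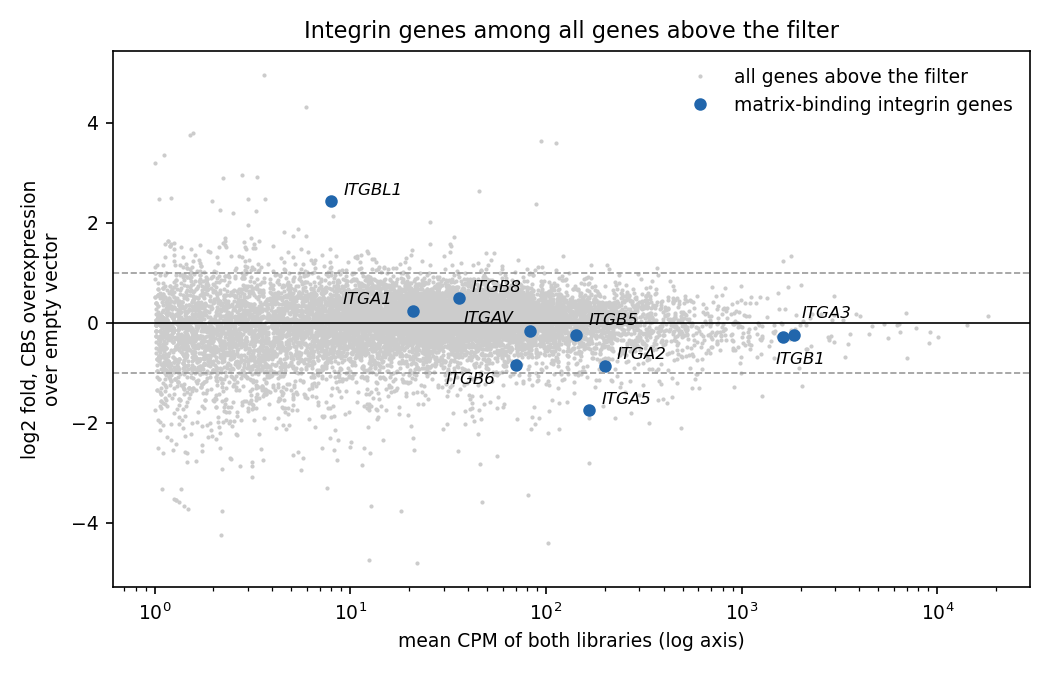
Log2 fold (CBS overexpression over empty vector) against mean CPM of both libraries on a log axis, with all 13304 genes above the filter in grey, the 10 genes in blue and dashed lines at a 2-fold difference. ITGBL1 at 2.44 lies above and ITGA5 at -1.75 below the bulk of genes of similar level, and ITGA3 and ITGB1 sit near 0 at the high end of expression.

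Other integrin chains, the receptors' partners and their ligands were read from lists written from general knowledge. Of 17 other integrin chains, 6 passed the filter, and 1 of the 6, ITGB3, was at least 2-fold lower (4.93% of all genes were). It had 9 counts with CBS, against 45 in the control, and did not reach 2-fold on log2(TPM + 1), at -0.70. ITGB3 is named because it was the only call, after its values were seen. ITGA6 and ITGB4, the pair of the hemidesmosome, had log2 folds of -0.06 (-0.10 to -0.03) and -0.27 (-0.29 to -0.26). ITGAE, which binds E-cadherin, was at 0.52 (0.15 to 0.95) and ITGA4, a fibronectin and VCAM-binding chain, at 0.33 (0.08 to 0.59). The median of the 6 was 0.09. None of ITGAD, ITGAX, ITGB2 and ITGAM, chains of leukocytes, exceeded 15 counts in either library.

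Ligands of the lower receptors were in part lower too. FN1, fibronectin itself, had 11229 counts with CBS, against 26250 in the control, a log2 fold of -1.29 (-1.32 to -1.26). It was the only one of the 8 RGD ligands above the filter, of 12 listed, to be at least 2-fold lower (4.93% of all genes were). TNC, tenascin-C, was at -0.95 (-1.03 to -0.88) and MFGE8, a secreted bridge to ITGAV receptors, at -0.61 (-0.71 to -0.51). CCN1, a matrix protein also called CYR61, was at 0.51 (0.31 to 0.72), and the median of these 8 was 0.08. Collagens were split, with 8 of 14 above the filter, 2 at least 2-fold lower, none at least 2-fold higher and a median of -0.03. COL7A1, of anchoring fibrils, was at -1.20 (-1.27 to -1.14) and COL1A1 at -1.07 (-1.41 to -0.79), where 4.93% of all genes were called lower and 1.57% higher. Neither reached 2-fold on log2(TPM + 1), with COL7A1 at -0.95 and COL1A1 at -0.22, nor with the GC and length trend removed, at -0.93 for COL7A1 and -0.88 for COL1A1. COL12A1 at 0.84 (0.74 to 0.95) and COL4A2, of basement membranes, at 0.79 (0.72 to 0.86) were higher. All 7 laminin chains passed the filter, with a median of -0.64, 2 at least 2-fold lower (4.93% of all genes were) and intervals below a ratio of 1 for 6 (29.0% of all genes). On log2(TPM + 1) 1 of the 7 was at least 2-fold lower. LAMB3, a chain of laminin-332, which ITGA3 with ITGB1 binds, was at -1.27 (-1.29 to -1.25). LAMB2 was at -0.80 (-0.90 to -0.71) and LAMA5 at -0.64 (-0.67 to -0.60).

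Of the genes of latent TGF-beta, TGFB1 was lower and TGFB2 was higher. The latent forms of TGFB1 and TGFB3 carry the RGD motif that receptors with ITGB6 and ITGB8 bind. TGFB3 had 24 counts with CBS, against 27 in the control, a log2 fold of -0.19 (-1.09 to 0.62), an interval that held a ratio of 1. TGFB1 had 2172 counts with CBS, against 4423 in the control, a log2 fold of -1.09 (-1.16 to -1.01). TGFB2 had 566 counts with CBS, against 229 in the control, a log2 fold of 1.23 (1.02 to 1.47). These were the 2 calls among 7 genes above the filter, of 9 listed, and the median was -0.85; of all genes 1.57% were called higher and 4.93% lower. TGFB1 did not reach 2-fold on log2(TPM + 1), at -0.91, or with the GC and length trend removed, at -0.88, where the list's median was -0.60. LTBP4 at -0.89 (-0.97 to -0.81) and LTBP2 at -0.87 (-1.06 to -0.70), of the family of latent TGF-beta binding proteins, were lower by less than 2-fold.

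As reported, the call rule took none of the listed genes that connect integrins to the cell interior or are their partners in the membrane. Of 33 adaptors and kinases, 28 passed the filter and 0 met the call rule in either direction, where 1.57% of all genes were higher and 4.93% lower, so that a count of 0 is near the share of all genes; 7 intervals lay above a ratio of 1, 17 below and 4 held it, with a median of -0.14. NEDD9, a docking protein, had 297 counts with CBS, against 569 in the control, and a log2 fold of -0.99 (-1.21 to -0.80); it was 2.00-fold lower without the prior and at -1.06 with the GC and length trend removed, both past the 2-fold rule, and at -0.60 on log2(TPM + 1). PTK2B, a focal adhesion kinase relative, was at -0.89 (-0.97 to -0.82), TNS4, a tensin that binds beta chain tails, at -0.62 (-0.65 to -0.60) and TNS3, another tensin, at 0.81 (0.70 to 0.93). TLN1, the talin that activates integrins, had 6611 counts with CBS, against 6980 in the control, a log2 fold of -0.14 (-0.19 to -0.09). All 15 membrane partners and trafficking genes passed the filter, with 0 calls, again near the shares of all genes, and a median of -0.28. SDC4, a co-receptor for fibronectin, was at -0.73 (-0.76 to -0.69), CD151, the tetraspanin bound to ITGA3, at -0.60 (-0.65 to -0.54), PLAUR, the urokinase receptor, at -0.50 (-0.63 to -0.37) and CAV1, caveolin, at 0.72 (0.68 to 0.75).

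**Figure D4:**
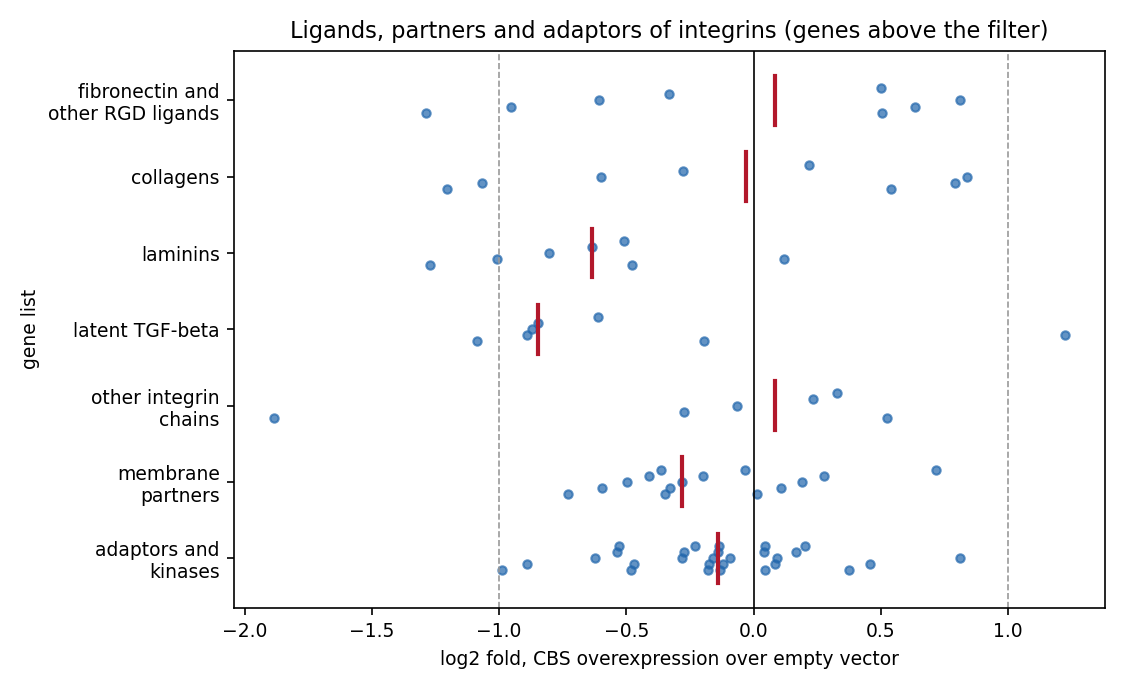
Log2 folds (CBS overexpression over empty vector) of genes above the filter in 7 lists, 1 blue point a gene, with the list's median as a red line and dashed lines at a 2-fold difference. Laminins and latent TGF-beta genes have the lowest medians, -0.64 and -0.85, and no adaptor, kinase or membrane partner lies beyond a dashed line.

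Log2 folds across all genes followed GC content of the longest annotated transcript (Spearman correlation -0.28 over 13225 genes, which share both libraries), and their median was 0.15 among the 20% of genes lowest in GC and -0.20 among the 20% highest. ITGA3, at 61.3% GC, went to -0.06 with the trend on GC and length removed, against -0.25 without. The AT-rich transcripts ITGA2, ITGB6 and ITGB1, at 40.2%, 40.1% and 40.0% GC, went to -0.99, -0.99 and -0.45. ITGAV, at 38.3% GC, went to -0.32, against -0.17 without. ITGA5, at 54.5% GC, stayed at -1.71 and ITGBL1, at 39.6% GC, at 2.28.

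**Figure D5:**
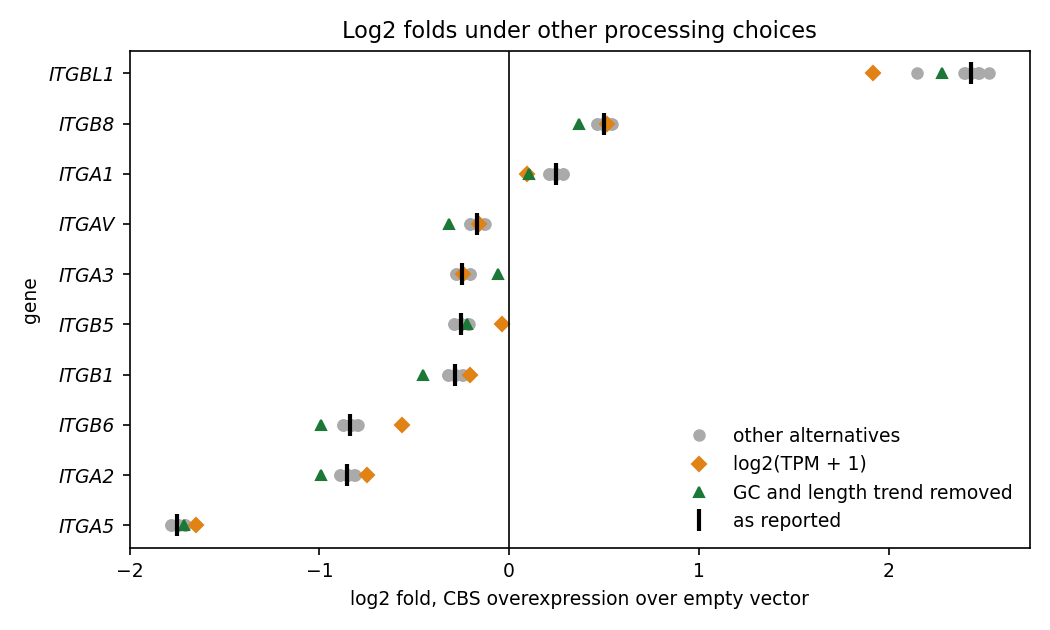
Log2 fold (CBS overexpression over empty vector) of each gene as reported (black bar), on log2(TPM + 1) (orange), with the GC and length trend removed (green) and under the other alternatives (grey). ITGBL1 and ITGA5 stay beyond 1 and -1 in every setting drawn, and no gene crosses 0.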

How the data were processed

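Total RNA from 1 CBS-overexpressing and 1 empty-vector culture was sequenced on the DNBseq platform, per the labels' protocols. Trimmomatic 0.39, STAR 2.6.1d, RSEM 1.3.2 and GRCh38 appear, with no roles stated, in the submitters' processing notes. The annotation release and the strand setting are not given in the sources used here. Expected counts were deposited for each gene (15.5% of values with CBS and 15.7% in the control were not whole), and so were TPM values, which the authors scaled for length and depth. Expected counts were rounded to whole numbers. TMM factors (edgeR 4.0.16, R 4.3.3) came from all rows, and no model was fitted. Log2 folds divide CBS by empty vector after adding 5 counts, in proportion to library size, as a prior. Exact 95% intervals (Clopper-Pearson, conditional binomial) were made without it and cover counting error only. Reads without molecular identifiers are not independent molecules. The calculation was tested on simulated data. GC content and length came from GENCODE 29, matched by ID for 99.4% of genes above the filter, and their trend was removed by lowess (span 0.3, statsmodels 0.14.6). The genes, the 12 lists and the tests were chosen with earlier results of these data known. Text names the 10 genes and, per list, up to 4 genes with the largest absolute log2 fold among those with at least 100 counts in 1 library, plus well-counted genes that say what binds a member. A gene that this rule takes is not reported here. KRT5, CDH1, CDH3, TP63, CD68, CD14, NGFR, EPCAM, CDH5, EGFL7 and genes given by their 0 counts are named as markers, chosen after their values were seen. TGFB3 was also named after its values were seen. Alternatives were DESeq2 1.42.0 size factors, library totals, median centring, TPM as log2(TPM + 1), prior counts of 1 and 20, other filters and fold thresholds of 1.5 and 4, and the GC and length trend; TMM over the genes above the filter the sum of ITGB1 with its pseudogene, and TPM, trend and no-prior values for the lists were added after the data were seen.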

Additional observations from a re-analysis of the deposited data

How the results depend on the processing

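No gene changed sign under any alternative that gave it a fold, and of the 10 genes ITGBL1 and ITGA5 were the only calls under each scaling, filter, prior count and TPM. Of the 10 genes, the number called lower was 3 at a fold threshold of 1.5, where ITGA2 and ITGB6 joined ITGA5 and 12.0% of all genes were lower. At a threshold of 4 it was 0, where 0.759% of all genes were lower, so that a count of 0 is near the share of all genes. ITGBL1 was still called higher at that threshold, where 0.18% of all genes were. Among the 10 genes, summed beta chains had a log2 ratio of -0.18 in TPM and -0.29 in counts. The beta partners of ITGAV among them, without ITGB1, had -0.09 in TPM and -0.31 in counts. Over all genes, 209 were higher and 656 lower, against 377 lower in TPM, 139 higher with a prior of 20, 469 higher and 1221 lower with no filter, and 132 higher and 406 lower among genes with 100 counts. The median log2 fold over all genes was 0.09 in TPM, against 0.04 as reported. No paired analysis was possible because each group held 1 library, and no library could be left out for the same reason. ITGBL1, with 47 counts in the control, is the gene whose size is least well set by depth.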

Other observations

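Counts and TPM of some genes did not move in step; TPM also depends on the length of the transcripts to which reads were assigned. The ratio of counts to TPM, CBS over empty vector and centred on the median of 10453 genes with at least 100 counts in both libraries, had a log2 value of 0.21 for ITGA1, -0.13 for ITGB5 and -0.17 for ITGB6. The other 7 genes lay within 0.1 of 0, as did all but 30.1% of the 10453. GENCODE 29 lists 7 transcripts for ITGA1, 13 for ITGB5 and 7 for ITGB6. ITGB5 had 20.7 counts per TPM with CBS and 23.0 with the empty vector, while ITGB8 had 121.8 with CBS and 124.9 in the control. The transcripts behind these ratios were not analysed here.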
